A study of Mus musculus with 12 samples.

Results

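The insulin-like growth factor (IGF) system was followed here through 10 genes of mouse prostate organoids, chosen by name and not by their values. They are the ligands Igf1 and Igf2, the receptors Igf1r, Igf2r and Insr, and the binding proteins Igfbp2, Igfbp3, Igfbp4, Igfbp5 and Igfbp7, which make up 10 of the 43243 gene names measured. The organoids were Matrigel cultures of digested prostate tissue, fed with medium that held EGF. There were 6 libraries of organoids with mutant SPOP (SPOPmut) and 6 of controls (SPOPwt), taken as 6 pairs by their shared numbers, S0 to S5. SPOP brings target proteins to the CUL3 ubiquitin ligase.

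By the protocols, an inducible Cre, CreERT2, was switched on overnight with 1 μM 4-hydroxytamoxifen, and it was either virally delivered with puromycin selection (model A) or carried as a TMPRSS2-CreERT2 transgene (model B). Sequencing covered 5 pairs of model A and 1 pair of model B, and no library is labelled with its model. The protocols also describe a noninducible system, PbCre;R26F133V animals against PbCre-negative ones. Cells were sorted for GFP, and control cells went through a sham sort, so the mutant and the selection cannot be told apart. Strain, age, number of animals and number of passages are not given in the labels, so p-values measure the spread between these cultures only. Model B expresses its Cre where the TMPRSS2 promoter is active, and model A wherever the virus entered.

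IGF1 and IGF2 are secreted ligands that signal through the tyrosine kinase IGF1R and, for some ligands and isoforms, the insulin receptor. IGF2R carries no kinase and takes IGF2 into the cell for degradation. The IGFBPs are secreted proteins that hold the ligands in the medium or matrix and keep them from, or release them to, the receptor. In the prostate, stroma is a known source of IGF1 and epithelium carries IGF1R. IGFBP7 is a relative of the family that binds IGFs weakly.

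Levels are RPKM, reads scaled to transcript length and library depth, so levels of different genes may be set side by side. Each library held an estimated 28270000 to 40980000 reads. Pair S5 differed from the other 5 pairs in cell identity. Its summed RPKM of 7 basal epithelial markers was 2279 to 3261, against 1.03 to 8.35 in S0 to S4. The sum of 10 fibroblast markers was 0.429 to 0.685 in S5, against 1220 to 2226 in S0 to S4. Lum, a matrix proteoglycan of that list, was listed at 0 in S5, but also in 3 libraries of S0 to S4, where it reached 1.59 RPKM at most. Of 9 luminal markers, 6 lay higher in both S5 libraries than in S0 to S4, with sums of 1494 to 1505 against 34.1 to 151, and the luminal secretory gene Pbsn was listed at 0 in all 12 libraries. Krt5, the most abundant basal marker, was 1194 to 1705 RPKM in S5 and 0.241 RPKM or less in S0 to S4, so the labelled prostate organoid did not carry this epithelial marker in S0 to S4. Other leading markers were Krt18 (luminal, 598.5 to 598.6 RPKM in S5 against 6.35 to 89.6 RPKM) and Col3a1 (fibroblast, 0.107 to 0.154 RPKM against 380 to 819 RPKM). Sums for smooth muscle (led by Acta2) were 2.45 to 3.85 in S5 against 112 to 803, for proliferation (Top2a) 18.9 to 25.5 against 30.0 to 241, for immune cells (Cd68) 7.40 to 7.70 against 3.93 to 6.85, for endothelium (Pecam1) 0.0925 to 0.132 against 0.0302 to 2.18, and for neuroendocrine cells (Syp) 0.0513 to 0.0827 against 0.0583 to 0.224. Within the immune list Csf1r was higher in S5, at 3.21 to 3.83 RPKM against 1.09 to 1.80 RPKM. Cd68 overlapped, at 3.86 to 4.16 RPKM against 2.13 to 4.74 RPKM. Lyz2 was lower, at 0.0193 RPKM or less against 0.0213 to 0.449 RPKM. Ptprc and Cd3e were at 0.0095 RPKM or less in every library. Spop averaged 51.4 ± 3.66 RPKM over the SPOPmut libraries and 46.0 ± 4.18 RPKM over the SPOPwt libraries (SD, n = 6 each), a level that does not show the mutation itself. In S0 to S5 Spop was 54.0, 52.5, 48.4, 48.1, 57.0 and 48.5 RPKM in SPOPmut. The SPOPwt partners held 52.7, 45.1, 44.6, 46.0, 47.8 and 40.0 RPKM, so SPOPmut was higher in every pair. Of all genes tested, 3.62% were higher in SPOPmut in all 6 pairs. In organoid cultures of this kind, fewer cells of a type and less RNA per cell cannot be told apart.

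Sequences upstream of 3 binding protein genes are shown because these genes were the most abundant binding proteins, with Igfbp4 leading in S0 to S4 and Igfbp3 in S5. Each is the 250 bases before the start site in RefSeq, on GRCm38.p6, printed on the gene's own strand. Igfbp4 is on the plus strand at chr11:99040994-99041243, Igfbp3 on the minus strand at chr11:7213924-7214173, and Igfbp7 on the minus strand at chr5:77408046-77408295. Capitals mark matches to the motifs searched on both strands, which were the TATA box motif TATAAA, the GC box motif GGGCGG, the E-box motif CACCTG, the AP-1 motif TGANTCA and the forkhead motif TGTTTAC. None of these 5 motifs contains another.
Igfbp3: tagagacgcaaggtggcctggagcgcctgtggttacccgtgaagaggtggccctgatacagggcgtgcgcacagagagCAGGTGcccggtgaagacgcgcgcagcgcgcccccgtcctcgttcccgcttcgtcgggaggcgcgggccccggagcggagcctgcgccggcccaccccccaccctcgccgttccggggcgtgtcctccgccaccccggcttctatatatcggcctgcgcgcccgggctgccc
Igfbp7: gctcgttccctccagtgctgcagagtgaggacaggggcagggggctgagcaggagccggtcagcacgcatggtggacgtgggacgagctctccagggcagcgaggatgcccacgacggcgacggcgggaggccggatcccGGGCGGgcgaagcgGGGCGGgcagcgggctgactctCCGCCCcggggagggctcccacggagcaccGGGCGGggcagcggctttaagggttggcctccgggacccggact
Igfbp4: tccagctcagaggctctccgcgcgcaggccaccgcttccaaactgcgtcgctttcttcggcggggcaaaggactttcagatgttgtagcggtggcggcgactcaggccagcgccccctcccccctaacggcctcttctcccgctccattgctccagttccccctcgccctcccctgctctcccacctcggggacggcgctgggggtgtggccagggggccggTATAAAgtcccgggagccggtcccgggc

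The Igfbp4 window held a TATA box that began at base -28 (counted back from the start site), and 12.4% of the 32851 RefSeq promoter windows of this length held one. The Igfbp7 window held 4 GC boxes, at -110, -96, -74 and -44, and 32.7% of windows held at least 1. The Igfbp3 window held an E-box on the other strand at -172, against 17.2% of windows. All 3 windows were rich in CpG, with 22 CpG in Igfbp4, 32 in Igfbp3 and 26 in Igfbp7, where the median over all windows was 6. An AP-1 match (6.75% of windows) and a forkhead match (3.17%) were in none of the 3 windows. These matches describe the letters of the windows and are not shown to be bound. Of the 10 genes, 9 had such an entry.

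Both ligands were lowest in S5. Igf1 (chr10:87858265-87937042, plus strand, GENCODE M21 on GRCm38), the main circulating and stromal growth ligand, was listed at 0 RPKM in the S5 SPOPmut library and at 0.00246 in the S5 SPOPwt library, where it rested on about 1 read. Across S0, S1, S2, S3 and S4 it was 3.04, 2.56, 2.05, 5.40 and 10.5 RPKM in SPOPmut, against 0.984, 1.10, 0.984, 6.37 and 5.40 RPKM in SPOPwt. Both S5 libraries lay below all 10 others, and within S0 to S4 the level spanned 10.7-fold, with S3 and S4 highest in both genotypes.

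Igf2 (chr7:142650766-142666816, minus strand), an imprinted ligand of fetal growth, stood at 0.233 RPKM in the SPOPmut library of S5 and 0.189 in its SPOPwt library. Pairs S0 to S4 held 0.587, 0.296, 0.851, 3.20 and 2.81 RPKM in SPOPmut, against 1.05, 1.14, 0.374, 1.29 and 2.53 RPKM in SPOPwt. The S5 libraries were again below the other 10, but the lowest of those, S1 SPOPmut, was close to them. Igf1 made up 48.4 to 89.6% of the summed ligand RPKM in S0 to S4, and the sum was 0.192 to 0.233 RPKM in S5 against 1.36 to 13.3 RPKM in S0 to S4. The insulin genes Ins1 and Ins2 were listed at 0 in all 12 libraries. The kit does not mark strand, and Igf1 and Igf2 overlap antisense genes, Igf1os and Igf2os, each at 0.124 RPKM or less in every library.

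**Figure D1:**
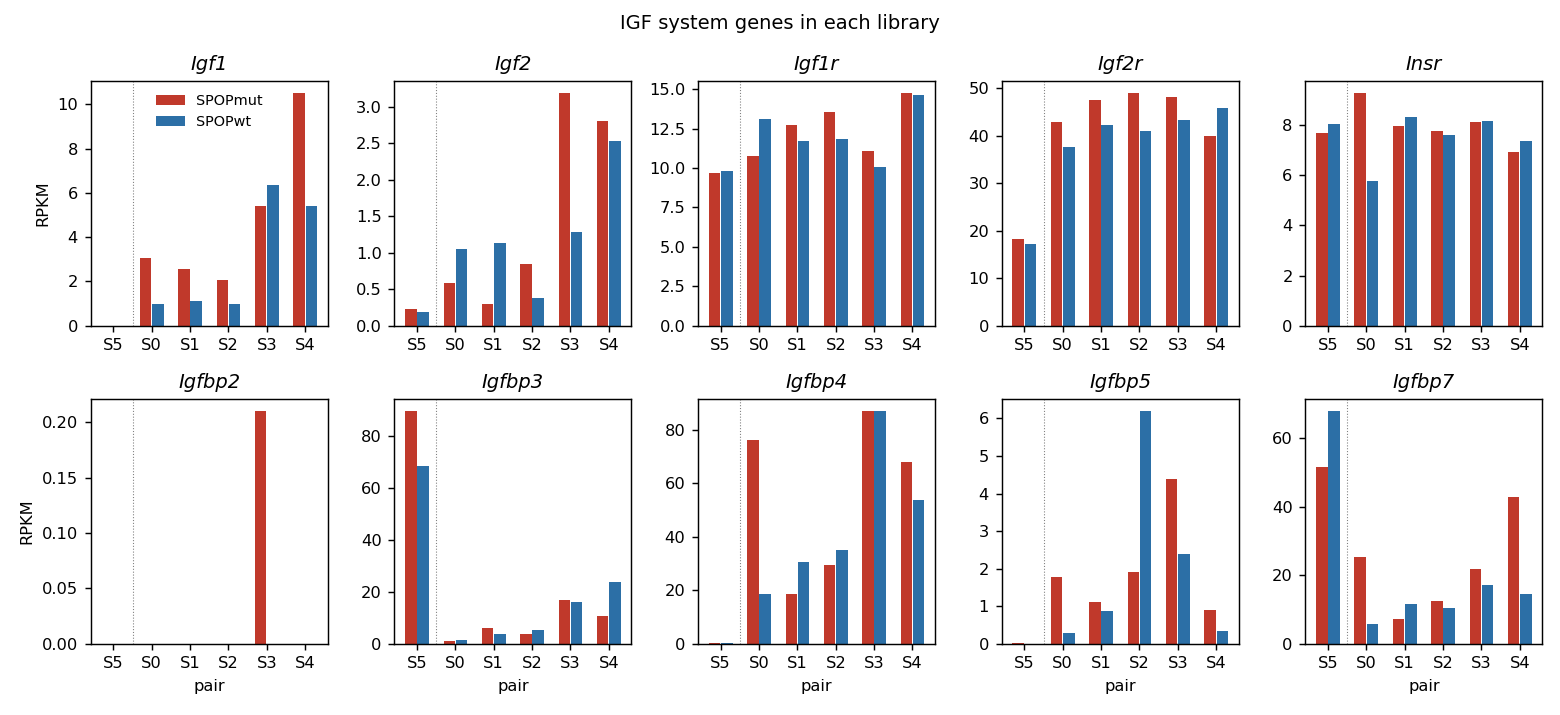
RPKM of the 10 IGF system genes (vertical axes, each with its own scale from 0) in the SPOPmut (red) and SPOPwt (blue) library of each pair, with S5 left of the dotted line and S0 to S4 right of it. Bars are single libraries: Igfbp3 reached 68.4 to 89.6 RPKM in S5, Igfbp4 was at 0.269 RPKM or less there, and Insr stood at 5.79 to 9.30 RPKM throughout.

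The receptors were present in every library. Igf1r (chr7:67952827-68233668, plus strand), the kinase through which both ligands signal, was 9.69 RPKM in SPOPmut and 9.80 RPKM in SPOPwt of S5. In S0 to S4 it ranged from 10.1 to 14.8 RPKM with a median of 12.3, a spread of 1.46-fold. The S5 libraries were the lowest, by a small margin under S3 SPOPwt.

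Igf2r (chr17:12682406-12769664, minus strand), the scavenging receptor that also sorts lysosomal enzymes, was the most abundant receptor in all 12 libraries. It was 18.2 RPKM in SPOPmut and 17.3 RPKM in SPOPwt of S5. The other pairs, S0 to S4, held 42.9, 47.5, 49.1, 48.1 and 40.0 RPKM in SPOPmut, against 37.7, 42.2, 41.0, 43.4 and 45.8 RPKM in SPOPwt. The 10 libraries of S0 to S4 lay within 1.30-fold of each other, and the mean of S5 was 0.405 times theirs. The antisense transcript Airn overlaps Igf2r and was 1.48 to 1.55 RPKM in S5, against 2.36 to 6.95 RPKM in S0 to S4.

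Insr (chr8:3122061-3279617, minus strand), the insulin receptor, was 7.69 RPKM in SPOPmut and 8.03 RPKM in SPOPwt of S5, inside the range of 5.79 to 9.30 RPKM in S0 to S4. It was the only member past the level filter whose S5 values overlapped those of S0 to S4. The ratio of Igf1r to Insr RPKM was 1.26 in SPOPmut and 1.22 in SPOPwt of S5, and ran from 1.16 to 2.26 in S0 to S4. The ratio of Igf2r to Igf1r was 1.88 in SPOPmut and 1.76 in SPOPwt of S5, below the 2.71 to 4.35 of S0 to S4.

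Among the binding proteins, Igfbp3 (chr11:7206086-7213923, minus strand), the main carrier of IGFs in serum, was 89.6 RPKM in SPOPmut and 68.4 RPKM in SPOPwt of S5. Its level in S0 to S4 was 1.07, 6.13, 3.91, 16.8 and 10.7 RPKM in SPOPmut, against 1.42, 3.65, 5.22, 16.2 and 23.9 RPKM in SPOPwt. Both S5 libraries were above all others, by a ratio of means of 8.87, although S0 to S4 themselves spanned 22.2-fold.

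Igfbp7 (chr5:77349240-77408041, minus strand), a secreted protein of vessel walls and stroma, was 51.6 RPKM in SPOPmut and 68.0 RPKM in SPOPwt of S5. Across S0 to S4 it was 25.4, 7.33, 12.5, 22.0 and 43.0 RPKM in SPOPmut, against 5.92, 11.7, 10.4, 17.1 and 14.5 RPKM in SPOPwt. The S5 values were highest, with S4 SPOPmut nearest to them, and the ratio of means was 3.52. Polr2b overlaps Igfbp7 on the plus strand and stood at 15.2 to 16.0 RPKM in S5, against 8.99 to 19.9 RPKM in S0 to S4. How reads in such overlaps were assigned is not stated in the labels.

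Igfbp4 (chr11:99041244-99054392, plus strand), an inhibitory binding protein that is cleaved by the protease PAPPA, was 0.137 RPKM in SPOPmut and 0.269 RPKM in SPOPwt of S5, about 20.5 and 48.7 reads. Its S0 to S4 values were 76.3, 18.6, 29.4, 86.9 and 67.8 RPKM in SPOPmut, against 18.8, 30.5, 35.1, 87.1 and 53.7 RPKM in SPOPwt. The mean of S0 to S4 was 248 times that of S5, and no library lay between 0.269 and 18.6 RPKM. The gene Pappa itself was at 0.212 RPKM or less in all 12 libraries.

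Igfbp5 (chr1:72857932-72874884, minus strand), a matrix-bound member of the family, was 0.0124 RPKM in SPOPmut and 0.00613 RPKM in SPOPwt of S5, about 2.51 and 1.51 reads. In S0 to S4 it was 1.78, 1.12, 1.90, 4.38 and 0.907 RPKM in SPOPmut, against 0.292, 0.877, 6.20, 2.39 and 0.340 RPKM in SPOPwt. S2 SPOPwt and S3 SPOPmut were highest, and the level spanned 21.2-fold. Its neighbour Igfbp2 (chr1:72824503-72852474, plus strand), 5457 bases away, was listed at 0 in 11 libraries and at 0.210 RPKM, about 11.0 reads, in S3 SPOPmut.

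**Figure D2:**
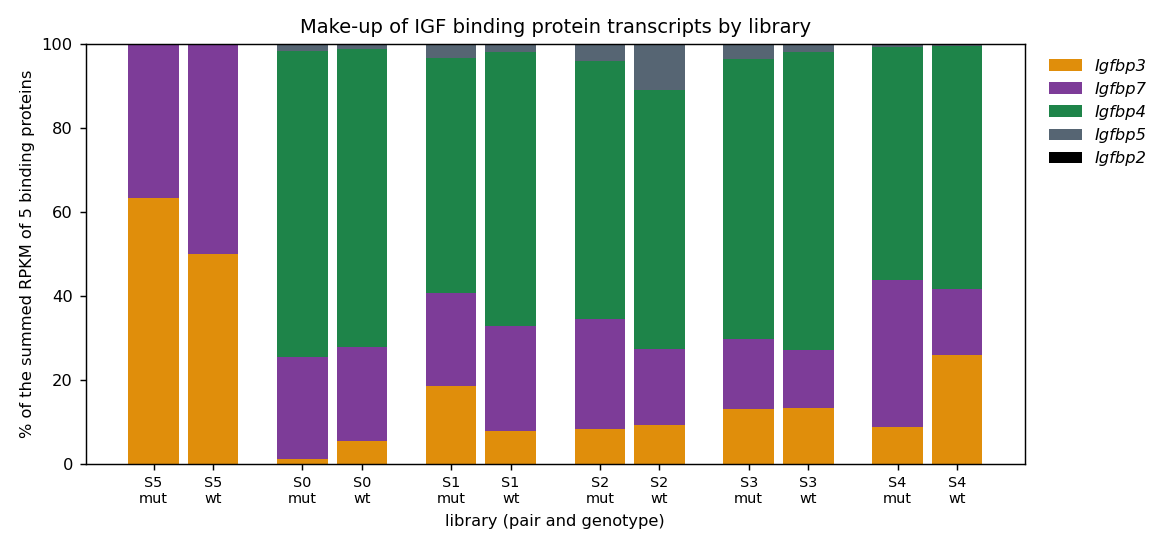
Share of the summed RPKM of the 5 binding proteins (vertical axis, %) held by each gene in each library, with S5 at the left and SPOPmut left of SPOPwt in each pair. Igfbp3 and Igfbp7 filled nearly the whole bar in S5, while Igfbp4 held 55.4 to 72.9% in S0 to S4.

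As a share of the summed binding protein RPKM, Igfbp3 was 63.4% in SPOPmut and 50.0% in SPOPwt of S5, against 1.03 to 25.9% in S0 to S4. Igfbp7 was 36.5% in SPOPmut and 49.8% in SPOPwt of S5, against 13.9 to 35.1% in S0 to S4. Igfbp4 was 0.0970% in SPOPmut and 0.197% in SPOPwt of S5, against 55.4 to 72.9% in S0 to S4. Igfbp4 was thus the leading binding protein in all 10 libraries of S0 to S4, and Igfbp3 in both of S5, where Igfbp3 and Igfbp7 were nearly equal in SPOPwt. The sum itself was 136.7 to 141.3 RPKM in S5, just above the 26.4 to 130.3 RPKM of S0 to S4. By mean level the order in S5 was Igfbp3, Igfbp7, Igf2r, Igf1r, Insr, Igf2, Igfbp4, Igfbp5, Igf1 and Igfbp2. In S0 to S4 it was Igfbp4, Igf2r, Igfbp7, Igf1r, Igfbp3, Insr, Igf1, Igfbp5, Igf2 and Igfbp2. In S0 to S4 the ranges of neighbours in this order overlapped, except for Igfbp2 below Igf2. In S5, Igf2 and Igfbp4 overlapped, as did Igf1 and Igfbp2 at the bottom, while the other neighbours did not.

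Set against all genes, a separation of S5 from S0 to S4 was common. Of the 13600 genes that reached 1 RPKM in 6 or more libraries, 21.4% lay higher in both S5 libraries than in all 10 others, 28.1% lay lower, and 49.5% did either. Of the 9 members that passed this filter (Igfbp2 did not), Igfbp3 and Igfbp7 (2 genes) lay higher and 6 lay lower, namely Igf1, Igf2, Igf1r, Igf2r, Igfbp4 and Igfbp5. The share that lay higher, 22.2%, was thus near that of all genes. A gene cannot pass the filter through the 2 S5 libraries alone, whereas Igf1, Igf2, Igfbp4 and Igfbp5 passed through S0 to S4 alone, so the count of lower genes lends no support. With quantile normalization, which moved the median over all genes by more than 0.1 from -0.071 to 0.080, 3805 genes lay higher and 2854 lower, against 2907 and 3825 without it. The members lower in S5 were then 3 (Igf1, Igf2r and Igfbp4), while Igf2, Igf1r and Igfbp5 overlapped.

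On the log2(RPKM + 1) scale, which understates changes of low genes, the difference S5 minus S0 to S4 was 3.43 for Igfbp3 and 1.95 for Igfbp7. It was 0.028 for Insr, -0.31 for Igf1r, -0.88 for Igf2, -1.25 for Igf2r, -1.36 for Igfbp5, -2.02 for Igf1 and -5.21 for Igfbp4. No test is given, since 1 pair against 5 allows no p below 0.167. These differences stand beside the epithelial and fibroblast marker sums given above, whose part in them was not tested.

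**Figure D3:**
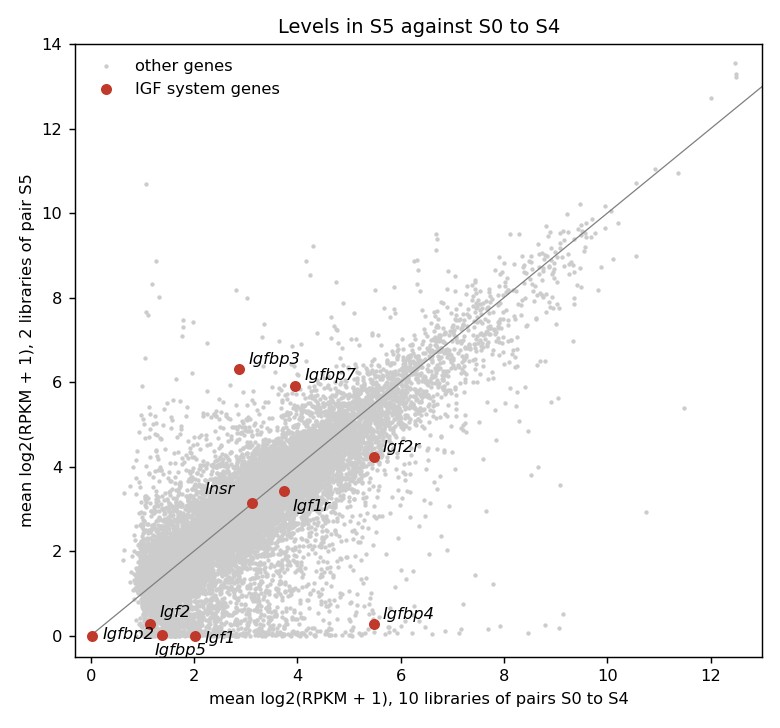
Mean log2(RPKM + 1) of the 2 S5 libraries (vertical axis) against that of the 10 libraries of S0 to S4 (horizontal axis) for the 13600 genes that passed the level filter (grey) and the 10 IGF system genes (red), with the line of equal levels. Igfbp3 and Igfbp7 lie over the line, Insr lies on it, and Igfbp4 lies far under it, with a difference of -5.21.

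Genotypes were then compared within pairs, the contrast for which the series was made. None of the 9 members passed (0 called, adjusted p under 0.05, limma with pair as a block, Benjamini-Hochberg over 13600 genes), where 0% of all genes did. At an unadjusted p under 0.05 there were 761 genes, 5.6% of those tested, with 3.82% higher and 1.77% lower in SPOPmut. Among the members 1 gene, Igf1, reached that level. No member that passed the filter had 1 direction in all 6 pairs, where 3.62% of all genes were higher and 1.68% lower in all 6. Of these 9 members, 8 had a difference above 0 and 1 below, where 6834 of all genes lay above 0 and 6766 below. The median was 0.10 on the log2 scale against 0.00055 over all genes. With 1 pair left out, Igf2, Igf1r, Insr, Igfbp3 and Igfbp4 each changed sign in at least 1 such fit, so the count of directions carries little weight.

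Igf1 averaged 3.93 ± 3.67 RPKM over the SPOPmut libraries and 2.47 ± 2.69 RPKM over the SPOPwt libraries (SD, n = 6 each). Within pairs its log2 difference was 1.02 in S0, 0.76 in S1, 0.62 in S2, -0.20 in S3, 0.85 in S4 and -0.0036 in S5. SPOPmut was thus higher in 4 of 6 pairs, by ratios of 3.08, 2.33, 2.08 and 1.95, while in S5 neither library held more than about 1 read. The mean difference was 0.51 ± 0.17 (SE), with an interval of 0.12 to 0.89 at 95%, and the limma adjusted p was 0.881. Without S4, or with no pair term, it no longer passed 0.05 unadjusted.

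Igfbp7 had a difference of like size, 0.51 ± 0.33 (SE; limma adjusted p = 0.887), with an interval of -0.25 to 1.26. It rested on S0, where SPOPmut was 4.30 times SPOPwt, and on S4, where it was 2.97 times, while SPOPmut was lower in S1 and S5, at ratios of 0.627 and 0.758. Without S0 the mean difference was 0.22. Igfbp4 was 4.06 times as high in SPOPmut as in SPOPwt of S0, and at ratios of 0.609, 0.838, 0.998, 1.26 and 0.509 in S1 to S5. Its difference was 0.20 ± 0.30 (limma adjusted p = 0.916), and -0.15 without S0.

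Igfbp5 was higher in SPOPmut in 5 of 6 pairs, with ratios of 6.09, 1.27, 1.83, 2.67 and 2.01, but its ratio was 0.307 in S2. The ratio of 2.01 is that of S5 and rested on about 2.51 reads in SPOPmut and 1.51 in SPOPwt. The Igfbp5 difference was 0.19 ± 0.27 (limma adjusted p = 0.911). It was 0.0092 without S0 and 0.49 without S2. Igfbp3 was higher in 3 pairs and lower in 3, with a difference of -0.10 ± 0.20 (limma adjusted p = 0.930), and its largest single difference was -1.09 in S4. Igfbp2 failed the filter, so it has values only.

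Among the receptors, Igf2r was 1.05 to 1.20 times as high in SPOPmut in 5 of 6 pairs, and 0.872 times in S4. Its difference was 0.10 ± 0.076 (limma adjusted p = 0.887), with an interval of -0.070 to 0.28. For Igf1r the interval was -0.14 to 0.19, and for Insr it was -0.16 to 0.30. The Insr value came from S0, at a ratio of 1.61, while the other 5 ratios lay between 0.940 and 1.02. Igf2 was higher in SPOPmut in 4 pairs and lower in 2, with a difference of 0.062 ± 0.19 (limma adjusted p = 0.956).

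Several of these values lean on S0, in which marker sums also differed. Partners of S0 hardly deviated together from their group means, with a correlation across genes of 0.0602, against 0.753 to 0.954 in S1 to S5. These correlations cannot establish the pairing, so the S0 ratios are within-pair differences by shared number only. The luminal sum was 151 in SPOPmut and 49.0 in SPOPwt of S0. The proliferation sum was 132 in SPOPmut and 225 in SPOPwt of that pair. The fibroblast sum was 1233 in SPOPmut and 1299 in SPOPwt there, although within that list Dcn was 39.5 RPKM in SPOPmut and 11.7 RPKM in SPOPwt. The summed RPKM of 5 smooth muscle genes, of which Acta2 was the most abundant, was 112 in SPOPmut and 803 in SPOPwt of S0, and 455 in SPOPmut and 156 in SPOPwt of S4. In S1, S2 and S3 the smooth muscle sums were 166, 217 and 289 in SPOPmut, against 157, 165 and 223 in SPOPwt. The part of these markers in the member values was not tested.

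**Figure D4:**
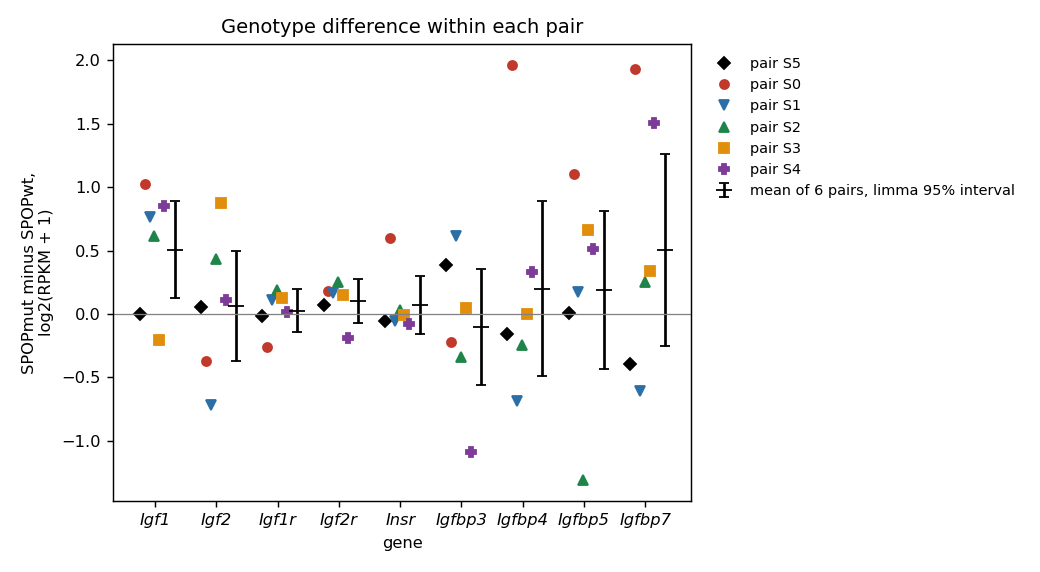
SPOPmut minus SPOPwt difference of log2(RPKM + 1) (vertical axis) within each of the 6 pairs (symbols) for the 9 members that passed the level filter, with the limma mean and its 95% interval (black bars). The interval of Igf1 runs from 0.12 to 0.89, and those of the other 8 genes include 0.

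Of 31 other genes of the pathway, 16 passed the level filter, 11 stayed below 1 RPKM in every library, 4 reached it in too few, and none was called between genotypes (0 at an unadjusted p under 0.05 as well). The median difference over the 16 was 0.021, with 10 above 0 and 6 below. The smallest p-values were those of Grb14, an adaptor that inhibits the insulin receptor, with a difference of 0.20 ± 0.090 (limma adjusted p = 0.887), higher in SPOPmut in 5 of 6 pairs, and of Gab1, a docking adaptor, with 0.13 ± 0.086 (adjusted p = 0.887).

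Between S5 and S0 to S4, 3 of these 16 lay higher, 4 lower and 9 overlapped, shares of 18.75% and 25% beside the 21.4% and 28.1% of all genes. Stc2, a stanniocalcin that inhibits PAPPA in human cells, was 11.0 RPKM in SPOPmut and 17.5 RPKM in SPOPwt of S5, against 0.351 to 4.01 RPKM in S0 to S4. The Ras exchange factor Sos1 was 9.64 to 11.5 RPKM in S5 and 6.0 to 7.41 RPKM in S0 to S4, and Gab1 was 6.40 to 8.93 RPKM in S5 and 4.67 to 6.21 RPKM in S0 to S4. Those lower in S5 were Igfbp6, an IGF2-preferring binding protein, the adaptor Shc1, the mRNA-binding protein Igf2bp2 and the transcription factor Stat5b.

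Igfbp6 was listed at 0 in SPOPmut and at 0.0987 RPKM in SPOPwt of S5, against 0.840 to 4.98 RPKM in S0 to S4, on the same side as Igfbp4 and Igfbp5. Shc1 was 13.3 to 14.8 RPKM in S5 and 16.5 to 38.3 RPKM in S0 to S4, Igf2bp2 was 8.73 to 8.74 RPKM in S5 and 10.8 to 36.5 RPKM in S0 to S4, and Stat5b was 3.80 to 4.34 RPKM in S5 and 6.93 to 9.98 RPKM in S0 to S4. The docking proteins that link the receptors to PI3K, Irs1 and Irs2, overlapped, with Irs1 at 11.6 to 12.6 RPKM in S5 and 6.47 to 13.4 RPKM in S0 to S4, and Irs2 at 5.65 to 5.73 RPKM in S5 and 3.04 to 6.25 RPKM in S0 to S4. The adaptor Grb2 was nearly level, at 18.7 to 19.3 RPKM in S5 and 18.0 to 21.4 RPKM in S0 to S4. Htra1, a secreted protease that cleaves IGFBPs, was the most abundant gene of the list, at 53.5 to 88.7 RPKM in S5 and 70.2 to 160 RPKM in S0 to S4. The adaptor Sh2b1, the phosphatase Ptpn1 and the insulin-degrading enzyme Ide also overlapped.

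**Figure D5:**
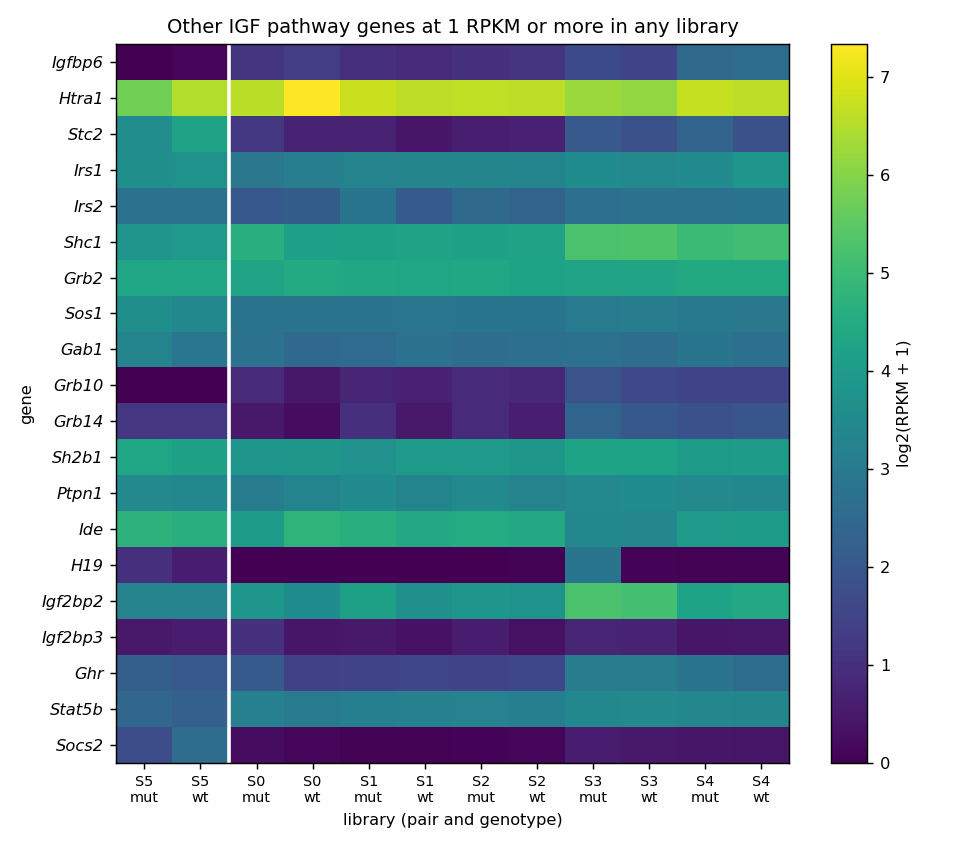
log2(RPKM + 1) (colour) of the other pathway genes that reached 1 RPKM in any library (rows), in the 12 libraries (columns), with S5 left of the white line and SPOPmut left of SPOPwt. Stc2, Sos1 and Gab1 are brighter in S5, Igfbp6, Shc1, Igf2bp2 and Stat5b are darker there, and Grb2 is nearly even across the row.

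Genes whose profile over the 12 libraries was most like that of a member were ranked by the root mean square difference of centred log2(RPKM + 1) values. These profiles include the step between S5 and the other pairs, and the ranking is a description. Such a difference tends to be small for a gene that varies little, so each member's own SD on this scale is given and members are not ranked by it. The scale also understates changes of low genes, so genes named as alike can differ in fold change. The nearest genes were Nav3 (0.067) and Pcdh11x (0.095) for Igf2r (SD 0.50), Dpagt1 (0.073) and H3f3b (0.078) for Igf1r (SD 0.20), and Kdm6a (0.074) and Yme1l1 (0.084) for Insr (SD 0.15). Igf1 (SD 1.13) was nearest to Csgalnact1 (0.21) and Sulf1 (0.27), and Igf2 (SD 0.65) to Tgfb2 (0.30) and Slc9a3r2 (0.30). Csgalnact1 takes part in chondroitin sulfate synthesis, and Sulf1 removes sulfate from heparan sulfate. For the binding proteins they were Vcam1 (0.41) and Mmp2 (0.43) for Igfbp4 (SD 2.17), Col7a1 (0.35) and Smad7 (0.42) for Igfbp7 (SD 1.05), Ano8 (0.54) and Bhlhe22 (0.55) for Igfbp5 (SD 0.90), and Bnc1 (0.67) and Vnn1 (0.68) for Igfbp3 (SD 1.74). Vcam1, an adhesion receptor, was 0.252 to 0.762 RPKM in S5 and 10.7 to 70.3 RPKM in S0 to S4, and Bnc1, a zinc finger protein of basal epithelia, was 22.8 to 26.5 RPKM in S5 and 0.373 to 2.83 RPKM in S0 to S4. Nav3 was 0.262 to 0.382 RPKM in S5 and 1.80 to 2.76 RPKM in S0 to S4. Pcdh11x was at 0 in S5 and 0.748 to 1.53 RPKM in S0 to S4. Both fell by a larger factor than Igf2r. Ano8 was 2.77 to 2.83 RPKM in S5 and 5.55 to 14.0 RPKM in S0 to S4, a smaller factor than that of Igfbp5.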

How the data were processed

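The authors deposited RPKM values, 1 column per library, for 43243 gene names in 12 libraries. STAR 2.4.0j is the aligner named in the submitters' processing notes, with GRCm38 (mm10) as the build. How reads were counted, with which annotation, and how multiply mapped reads were treated is not given in the sources used here. Per the labels' protocols the kit was TruSeq, which does not mark strand. RPKM is relative to all other genes, and very abundant transcripts can lower it for the rest.

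The spacing of low values, with GENCODE M21 exon lengths, gave the depth (91.2% of names matched), and the read numbers are such approximations. Among values of at most 20 such reads, 40.3 to 43.4% lay within 0.04 of a multiple of 0.5 reads, where 16% would by chance. Whole reads were not recovered and no count test was run. Possible duplicates within a group were sought by a chi-square per gene. The lowest median was 1.10, between S1 and S2 of SPOPwt, against 0.455 from sampling alone. S1 and S2 of SPOPmut came next at 1.81, and then S0 and S2 of SPOPwt at 6.10. None were merged, so S1 and S2 count as separate pairs in every SD, SE, p-value and count of pairs. Whether they share a source is not given in the labels.

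Values were analysed as log2(RPKM + 1) with limma 3.58.1 in R 4.3.3, with pair and genotype as terms, a robust and trended variance prior. Tests were two-sided, with Benjamini-Hochberg adjustment over the 13600 genes kept. The fit was tested on simulated data. Tables and figures used matplotlib 3.10.9, scipy 1.17.1, numpy 2.4.6 and pandas 2.3.3 in Python 3.11.15. S5 against S0 to S4 is a description without a test. Pairs come from the labels, which speak of pairs and number both groups S0 to S5. Partners deviated from their group means together in S1 to S5, with correlations across genes of 0.753 to 0.954, but hardly in S0, at 0.0602. Each group mean includes S5, which differs in cell identity, and libraries of unlike pairs were not compared. These correlations therefore cannot establish the pairing. Named genes were the 10 members, pathway and imprinted genes past the test or otherwise the 2 of smallest p and those with a mean of at least 5 RPKM, the 2 genes most like each member, and the most abundant marker of each list. Socs2, Igfbp6, Ins1, Ins2, Pappa, H19, Cdkn1c, Plagl1, Grb10, Peg3, Mest, Dcn, Lum, Pbsn and the overlapping genes were added after their values were seen. Dlk1, Meg3, Ndn and the further fibroblast and immune markers named singly were added likewise. The members and lists were chosen with earlier results of these data known. Alternatives changed the pseudocount, the filter, the scaling, the block and the pairs used.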

Additional observations from a re-analysis of the deposited data

Results flagged for a closer look

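Of 29 groups of 6 values checked, 8 held a library or pair whose gap to its nearest neighbour exceeded 0.625 of the whole range. For 6 values drawn alike, chance gives about 1 in 20 groups. Each group here holds S5, which differs in cell identity, so the count of 8 cannot be set against that rate. S5 was the lowest library for Igf2r in both genotypes, with 18.2 RPKM for SPOPmut and 17.3 RPKM for SPOPwt. It was also the lowest for Igfbp4, with 0.137 RPKM for SPOPmut and 0.269 RPKM for SPOPwt. Insr was lowest in S0 SPOPwt, at 5.79 RPKM, and its SPOPmut minus SPOPwt difference was highest in S0, at 0.60 on the log2 scale. Igfbp2 was highest in S3 SPOPmut, at 0.210 RPKM, and its difference was highest in S3, at 0.28, since every other library was listed at 0. Both Igfbp2 flags thus rest on the same value.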

How the results depend on the processing

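No gene, member or pathway gene was called between genotypes under any of the 11 alternatives. The position of S5 against S0 to S4 was kept by all members under the other pseudocount, median-ratio scaling, each genotype alone and each pair left out. With quantile normalization 3 members in place of 6 lay below, and with no filter 6199 genes in place of 2907 lay above. Under quantile normalization the difference of Igfbp2, a gene listed at 0 almost everywhere, turned to 0.36, and with SPOPmut libraries only that of Insr turned to -0.049. The cause was not tested. Leaving out 1 pair turned the sign of 12 genotype differences near 0. The members among them ran from -0.10 to 0.22 for Igf2, -0.0046 to 0.084 for Igf1r, -0.034 to 0.10 for Insr, -0.24 to 0.097 for Igfbp3 and -0.15 to 0.38 for Igfbp4. The pathway genes ran from -0.023 to 0.15 for Irs2, -0.070 to 0.060 for Shc1, -0.032 to 0.030 for Grb2, -0.029 to 0.036 for Sos1, -0.042 to 0.025 for Sh2b1, -0.026 to 0.064 for Ptpn1 and -0.12 to 0.078 for Ide. Insr and Igfbp4 turned without S0, Igf2 without S2 or S3, Igf1r without S2 and Igfbp3 without S4. With no replicate block, the pairing left aside, Igf1 kept its difference of 0.51 at an adjusted p of 1.00. Its adjusted p ran from 0.603 to 1.00 over all alternatives. With a pseudocount of 0.1 the S5 differences of low genes grew, to -4.87 for Igf1 and -7.20 for Igfbp4. Depth limits Igf1, Igfbp5 and Igfbp2 in S5, where they rest on about 3 reads or fewer.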

Other observations

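Imprinted genes of embryonic growth, the class to which Igf2 belongs, were mostly low, and none of 10 passed the level filter. Among them H19, Dlk1, Meg3, Mest and Ndn overlapped between S5 and S0 to S4, and the others did not. For H19 and Mest the overlap came from S3 SPOPmut alone, at 6.28 and 2.21 RPKM. H19 was 0.502 to 0.976 RPKM in S5 and 0.0447 RPKM or less in the rest of S0 to S4. Mest was 1.29 to 1.37 RPKM in S5 and 0.633 RPKM or less in that rest. Of the 13600 genes past the filter, 49.5% did not overlap, so such a separation is common among them. The imprinted genes lie outside that set, and no share was taken over genes of their low level. Phlda2, an imprinted growth repressor of the placenta, was 8.69 RPKM in SPOPmut and 10.2 RPKM in SPOPwt of S5, against 0.0881 RPKM or less in S0 to S4. Cdkn1c, a cyclin-dependent kinase inhibitor, was 6.23 RPKM in SPOPmut and 2.31 RPKM in SPOPwt of S5, against 0.0211 to 2.13 RPKM in S0 to S4, and Plagl1, a zinc finger factor, was 1.88 RPKM in SPOPmut and 3.12 RPKM in SPOPwt of S5, against 0.0193 to 0.541 RPKM in S0 to S4. Grb10, an adaptor that inhibits the IGF1 and insulin receptors, lay lower in S5, with 0.00651 RPKM for SPOPmut and 0.00732 RPKM for SPOPwt against 0.399 to 2.64 RPKM in S0 to S4. Peg3, a zinc finger protein expressed from the paternal allele, was 0.0233 RPKM in SPOPmut and 0.0109 RPKM in SPOPwt of S5, against 0.0326 to 2.59 RPKM in S0 to S4. It was higher in SPOPmut in 6 of 6 pairs, by ratios of 2.06 to 10.8, as was Mest, by ratios of 1.06 to 3.49. Of the genes past the level filter, 3.62% were higher in all 6 pairs. In S5 the Peg3 values lie near 0, so its ratio of 2.14 there carries little weight. Peg3 and Mest did not pass the level filter and were picked from the list after their values were seen. With no filter no gene was called between genotypes. Socs2, an inhibitor of growth hormone signalling, was 2.32 RPKM in SPOPmut and 5.17 RPKM in SPOPwt of S5, against 0.0300 to 0.491 RPKM in S0 to S4.

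H19, the noncoding RNA 72622 bases from Igf2, was 6.28 RPKM in S3 SPOPmut and 0.976 RPKM or less in the other 11 libraries. By a rule chosen after this value was seen (at least 2 RPKM and over 5 times the next library), 4 genes stood out in S3 SPOPmut, all of them overlapping gene models at the H19 locus that can share reads. The same rule gave 7 genes in S5 SPOPmut, 1 in S0 SPOPmut, 4 in S0 SPOPwt and 0 in the other libraries. The same library had the highest Igf2 (3.20 RPKM), the only Igfbp2 value above 0, and the highest sum of 5 endothelial markers, 2.18 RPKM against 0.296 RPKM or less elsewhere. Whether these are related was not tested.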
